A study of Mus musculus with 6 samples.

Results

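The Zbtb genes encode BTB zinc finger proteins and were taken as every row of the count table whose symbol is Zbtb, a number and any lower-case letters. There were 41 such genes among the 55401 rows of the table, and all 41 passed the filter on low counts that kept 17573 genes. The symbols also matched Zbtb8os, named for lying opposite a Zbtb gene, which encodes archease and no BTB zinc finger protein. It was kept because the symbol chose it, and it is described apart from the others.

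RNA labelled with 4-thiouridine (4sU), a uridine analogue that marks newly made RNA, was biotinylated and pulled down from embryonic stem cells of the mouse, a line labelled 129/Ola. The 3 control libraries carry the labels AID 0h and genotype WT, and the 3 depleted libraries carry AID 5h and a genotype naming ZFP207 degradation. Per the treatment protocol, cells in which ZFP207 carries an auxin-inducible degron (AID) were grown in serum and leukemia inhibitory factor, without or with the auxin IAA for 5 h. The controls were therefore taken as the same degron line without IAA. Cells that lack the degron but received the auxin were not analysed here, so an effect of IAA itself and one of ZFP207 depletion cannot be told apart. No label says whether the line is 1 clone. In such bulk libraries, fewer cells of a type and less labelled RNA per cell cannot be told apart either.

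BTB zinc finger proteins pair through an N-terminal BTB (POZ) domain and bind DNA through C2H2 zinc fingers near the C terminus. The BTB domain of several members recruits corepressor complexes such as BCOR or the ubiquitin ligase scaffold CUL3, and most members studied act as repressors. The family is best known for fixing cell fates in lymphocytes and in the nervous system, and some members read DNA methylation. ZFP207 is itself a C2H2 zinc finger protein without a BTB domain. The study was designed around how it affects U1 snRNP, the spliceosome particle that recognises the start of an intron.

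Total counts ran from 14336811 to 25916628 per library, and the Zbtb rows took between 0.249% and 0.265% of them. All 10 embryonic stem cell markers were expressed, with a summed level of 4411 to 4742 CPM in controls and 4532 to 5090 CPM after IAA. The 8 fibroblast feeder markers summed to 6.32 to 10.9 CPM in controls and 2.99 to 5.68 CPM after IAA, and Col3a1, Dcn and Lum had 0 counts in every library. The 7 primitive endoderm markers summed to 6.54 to 21.5 and 13.99 to 32.2 CPM, and the 7 neural or mesoderm markers to 24.6 to 37.7 and 22.0 to 38.3 CPM, with T at 0 throughout. With the replicate number as a block, edgeR called the stem cell markers Klf4 (adjusted p = 0.0468) and Utf1 (adjusted p = 0.0126) higher. It called Tdh lower (adjusted p = 5.70e-04). That fit called 4.96% of all genes higher and 7.90% lower, and without the block 0 of the 10 were called. The part of these markers in the results below was not tested. CPM is the number of counts of a gene per 1000000 of its library, after edgeR scaled library sizes by its TMM method (a trimmed mean of log ratios).

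Promoters of 4 members called in the paired fit are shown, from members that fell and members that rose. The GC content was 53.6% for Zbtb8os, 68.0% for Zbtb37, 84.0% for Zbtb18 and 75.6% for Zbtb39. The 250 bases before the most upstream listed RefSeq promoter start (GRCm38.p6, the assembly that mm10 names) were found for 36 of the 41 members. Some windows, among them that of Zbtb8os, lie inside the RefSeq interval of their gene and not before its outer end. Those of Zbtb8os (chr4:129335718-129335967, plus strand) and Zbtb37 (chr1:161034850-161035099, minus strand), which fell, and of Zbtb18 (chr1:177442101-177442350, plus strand) and Zbtb39 (chr10:127739280-127739529, plus strand), which rose, read 5′ to 3′ as follows, with the letters of any searched motif in capitals.
Zbtb8os: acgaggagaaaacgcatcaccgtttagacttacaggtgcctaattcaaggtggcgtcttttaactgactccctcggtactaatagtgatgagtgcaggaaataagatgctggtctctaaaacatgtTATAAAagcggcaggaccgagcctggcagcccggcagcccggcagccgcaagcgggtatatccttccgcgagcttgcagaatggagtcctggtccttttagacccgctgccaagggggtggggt
Zbtb37: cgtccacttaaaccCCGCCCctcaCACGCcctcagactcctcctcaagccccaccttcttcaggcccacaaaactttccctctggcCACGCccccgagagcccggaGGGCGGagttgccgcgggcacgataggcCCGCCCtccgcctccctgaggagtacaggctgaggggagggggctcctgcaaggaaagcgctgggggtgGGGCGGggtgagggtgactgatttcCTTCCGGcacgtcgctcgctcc
Zbtb18: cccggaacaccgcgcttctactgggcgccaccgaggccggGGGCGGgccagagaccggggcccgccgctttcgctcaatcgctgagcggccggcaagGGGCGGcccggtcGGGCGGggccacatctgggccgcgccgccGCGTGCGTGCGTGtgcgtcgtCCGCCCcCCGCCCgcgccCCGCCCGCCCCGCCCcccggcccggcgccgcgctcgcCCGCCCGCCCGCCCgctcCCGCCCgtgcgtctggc
Zbtb39: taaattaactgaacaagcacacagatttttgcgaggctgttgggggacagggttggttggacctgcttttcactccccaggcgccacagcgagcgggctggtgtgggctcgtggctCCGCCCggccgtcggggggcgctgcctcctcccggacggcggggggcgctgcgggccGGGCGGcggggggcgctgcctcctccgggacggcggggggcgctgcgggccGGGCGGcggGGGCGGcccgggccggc
The motifs searched on both strands, with overlapping matches allowed, were the TATA box TATAAA, the CCAAT box CCAAT, the GC box GGGCGG, the ETS site CCGGAAG, the E-box CACGTG, the Kaiso palindrome and the core GCGTG of the aryl hydrocarbon receptor element. The window of Zbtb8os held TATAAA and none of the other 6 motifs, and Zbtb43 was the only other member with TATAAA. The GC box stood in the other 3 windows shown. Of the called members not shown, Zbtb44 held it and Zbtb14 held none of the searched motifs. The window of Zbtb49, the called member that rose the most, is not printed either. It overlaps the interval of the gene Lyar, as the printed Zbtb37 window overlaps that of the gene Gas5. The Zbtb49 window held the E-box and GCGTG but no GC box, with a GC content of 72.0%.

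Across the 36 members the 250 bases held a median of 21 CpG dinucleotides and a GC content of 64.6%, against 16 and 60.0% for 11096 tested genes with a listed promoter. The members ranged from 0 CpG in Zbtb46 to 47 in Zbtb18. The Zbtb46 window (chr2:181424389-181424638, minus strand) lies well inside the interval of its gene (chr2:181371009-181493262), as does that of Zbtb20. Neither is the promoter at the outer end of the gene. The GC box was present in 63.9% of members and 58.9% of tested genes, the CCAAT box in 33.3% and 37.3%, the ETS site in 22.2% and 13.7%, the E-box in 11.1% and 8.40%, GCGTG in 38.9% and 45.1%, and TATAAA in 5.56% and 6.50%. The Kaiso palindrome was in none of the 36 windows and in 0.928% of tested genes. These letters describe the windows and were not tested against the changes.

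After 5 h of IAA, 1 of the 41 members was called, and it was the one that encodes no BTB zinc finger protein. In the edgeR quasi-likelihood fit without a block (the unpaired fit), at a Benjamini-Hochberg adjusted p under 0.05, Zbtb8os was lower and 0 members were higher. The same fit called 0.780% of all genes lower and 0.0114% higher. At an unadjusted p under 0.05 it held 3 lower members (Zbtb8os, Zbtb37 and Zbtb40) and 3 higher ones (Zbtb18, Zbtb44 and Zbtb49), together 14.6% of the members against 10.9% of all genes. DESeq2 without the block called Zbtb8os and Zbtb37 lower and Zbtb49 higher, where it called 3.30% of all genes lower and 0.353% higher.

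Over all genes, libraries with the same replicate number deviated together. The fit with that number as a block (the paired fit) called 9 members. It called 3 lower, Zbtb8os, Zbtb37 and Zbtb40, and 6 higher, Zbtb49, Zbtb18, Zbtb39, Zbtb14, Zbtb44 and Zbtb10. These are 7.32% and 14.6% of the members, against 7.90% of all genes called lower and 4.96% called higher in that fit. Zbtb8os and Zbtb37 moved further than any member called higher, and Zbtb40 did not. The paired log2 fold changes (depleted over control throughout) were -1.59 to -0.52 for the lower members and 0.32 to 0.56 for the higher ones.

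**Figure D1:**
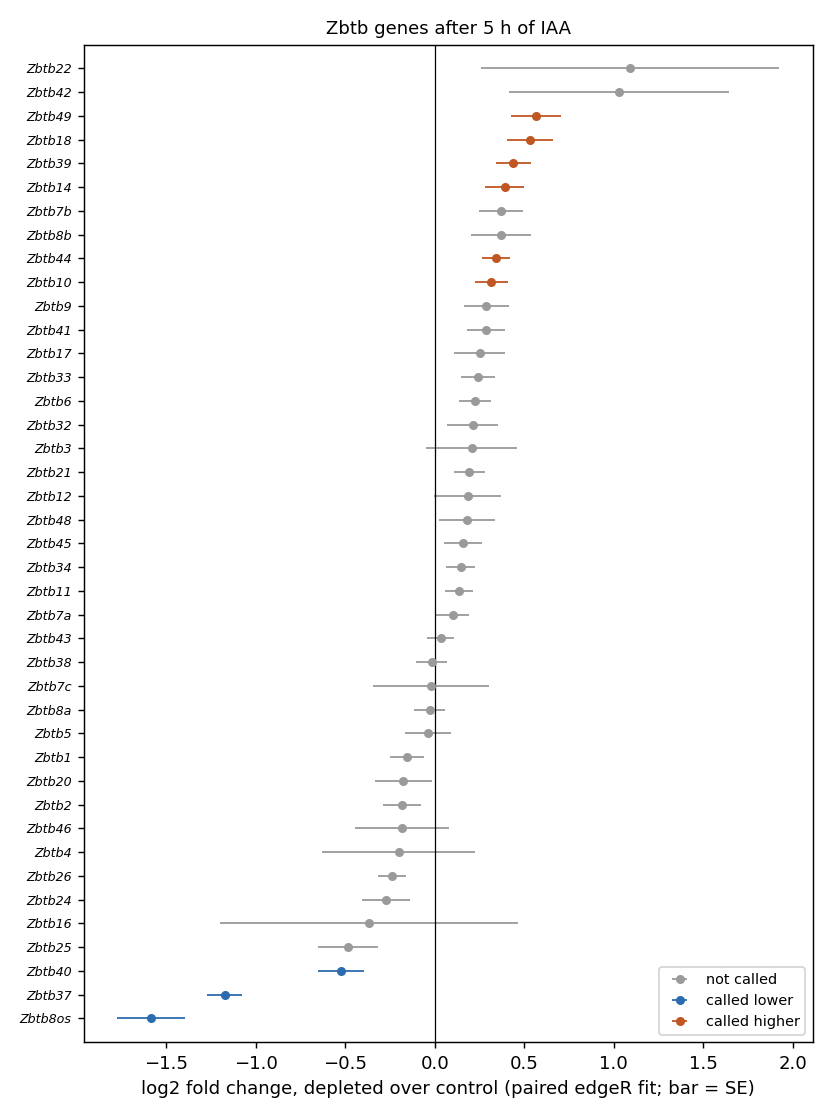
Log2 fold change of each of the 41 Zbtb genes, depleted over control, in the paired edgeR fit, ordered by value, with bars of 1 SE. Zbtb8os (-1.59) and Zbtb37 (-1.17) stand apart at the low end, the 6 members called higher lie between 0.32 and 0.56, and Zbtb22 (1.09) and Zbtb42 (1.03) lie above them with wide bars and are not called.

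Zbtb8os (ENSMUSG00000057572, chr4:129335532-129349871) encodes archease, the cofactor of the RNA ligase that joins the exons of tRNAs and of the Xbp1 mRNA. Controls 1 to 3 held 25.0, 28.0 and 23.8 CPM, and the depleted libraries, in the same order as for all members below, 7.23, 12.2 and 6.84 CPM. Each depleted library lay below each control library, and the ratios within the pairs were 0.290, 0.435 and 0.288. It fell 2.92-fold in the unpaired fit (log2 fold change -1.54, SE 0.27, edgeR adjusted p = 0.0438) and the paired log2 fold change was -1.59 (SE 0.19, adjusted p = 2.24e-04). The unpaired call was lost when any single library was left out (adjusted p = 0.0521 to 0.173), while its log2 fold change stayed between -1.86 and -1.41. The paired call was kept whichever of the 3 pairs was left out. No other RefSeq gene overlaps its interval.

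The Zbtb gene that Zbtb8os faces was not called. Zbtb8a (chr4:129353632-129378028) runs toward it on the opposite strand, with 3760 bases between the intervals. It was at 93.1, 63.3 and 98.5 CPM in controls and 87.0, 64.6 and 97.5 CPM after IAA (paired log2 fold change of -0.029 with SE 0.09, edgeR adjusted p = 0.881). Zbtb8b, the next Zbtb gene on that strand, was at 19.0, 12.2 and 16.0 CPM and at 21.0, 17.6 and 21.9 CPM (paired log2 fold change 0.37, adjusted p = 0.172).

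Zbtb37 (ENSMUSG00000043467, chr1:161002922-161034864) fell 2.26-fold in the paired fit, the largest fall of a BTB zinc finger member. Its level was 119, 206.7 and 128 CPM in controls and 46.2, 109 and 53.9 CPM after IAA. The depleted libraries all lay below the lowest control, and replicate 2 was the highest in both groups. On the log2 scale the paired difference was -1.17 (SE 0.10, adjusted p = 3.14e-05 in edgeR) and the call was kept whichever of the 3 pairs was left out. The unpaired value was -1.11 (SE 0.34, adjusted p = 0.239).

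Gas5, a snoRNA host gene, starts opposite Zbtb37 and overlaps it by 264 bases, and the whole promoter window printed above for Zbtb37 lies within the Gas5 interval. Gas5 was at 566, 424 and 547 CPM in controls and 805, 574 and 755 CPM after IAA, so that it rose where Zbtb37 fell (paired log2 fold change of 0.47 with SE 0.07, edgeR adjusted p = 6.41e-04; unpaired adjusted p = 0.362). Strand is not given in the sources used here, so reads of the overlap cannot be assigned to either gene.

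**Figure D2:**
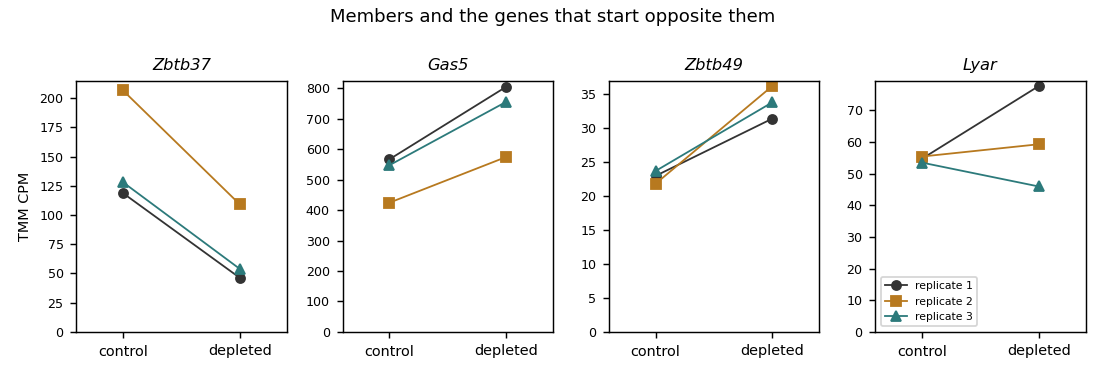
TMM-normalised CPM per library of Zbtb37 and Zbtb49 and of the genes that start opposite them, Gas5 and Lyar, with lines joining libraries of the same replicate number. Zbtb37 was lower and Gas5 higher after IAA in all 3 pairs, Zbtb49 was higher in all 3, and Lyar was higher in replicates 1 and 2 and lower in replicate 3.

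Zbtb40 (ENSMUSG00000060862, chr4:136979732-137048820), from a locus known for its association with bone density, fell 1.44-fold. It was at 42.0, 36.9 and 36.7 CPM in controls and 27.0, 25.6 and 27.8 CPM after IAA, with no overlap between the groups. On the log2 scale the paired difference was -0.52 (SE 0.13, adjusted p = 0.0196 in edgeR), and the unpaired one was the same to 2 decimals (SE 0.17, adjusted p = 0.258). The paired call was lost whichever pair was left out (adjusted p = 0.0600 to 0.105). Zbtb40, Zbtb37 and Zbtb8os were the only members whose groups did not overlap in the lower direction, where 11.8% of all genes did so.

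Of the members that rose in the paired fit, Zbtb49 (ENSMUSG00000029127, chr5:38189732-38220499), reported to activate the cell cycle inhibitor gene Cdkn1a, rose the most, by 1.48-fold. It was at 22.9, 21.8 and 23.7 CPM in controls and 31.4, 36.2 and 33.8 CPM after IAA. The controls lay close together and every depleted library was above them. On the log2 scale the paired difference was 0.56 (SE 0.14, adjusted p = 0.0186 in edgeR; unpaired adjusted p = 0.229). The gene Lyar starts opposite it with an overlap of 29 bases and was called in neither fit (paired log2 fold change 0.13, adjusted p = 0.565).

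Zbtb18 (ENSMUSG00000063659, chr1:177442351-177450764), also called RP58, is a repressor needed in cortical neuron development. It rose 1.45-fold, from 21.7, 29.8 and 27.4 CPM to 32.2, 39.7 and 42.0 CPM, with every depleted library above the highest control (paired log2 fold change of 0.53 with SE 0.13, edgeR adjusted p = 0.0179; unpaired adjusted p = 0.358). It carried the most CpG-rich promoter window of the 36.

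Zbtb39 (ENSMUSG00000044617, chr10:127739530-127747349) rose 1.36-fold in the paired fit, from 60.4, 50.8 and 76.5 CPM to 87.4, 72.3 and 92.6 CPM. The groups overlapped, because the depleted library of replicate 2 lay below the control of replicate 3 (paired log2 fold change of 0.44 with SE 0.10, edgeR adjusted p = 0.0108; unpaired adjusted p = 0.464). Zbtb14 (ENSMUSG00000049672, chr17:69383175-69390752), also called ZF5 and known as a repressor of Myc that binds GC-rich DNA, rose 1.31-fold. Its levels went from 48.1, 57.0 and 48.7 CPM to 64.1, 84.7 and 55.2 CPM, and the groups overlapped (paired log2 fold change of 0.39 with SE 0.11, edgeR adjusted p = 0.0323; unpaired adjusted p = 0.492).

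Zbtb44 (ENSMUSG00000047412, chr9:31029720-31075885) had the most counts of the family, 5152 to 9227 per library. It rose 1.27-fold, from 277, 305 and 311 CPM to 365, 421 and 349 CPM, with no overlap between the groups (paired log2 fold change of 0.34 with SE 0.08, edgeR adjusted p = 0.0123; unpaired adjusted p = 0.388). Zbtb10 (ENSMUSG00000069114, chr3:9250567-9285333), a GC-box binding repressor also reported at telomeric repeats, rose 1.25-fold. Its replicates differed more than its groups, at 57.2, 114 and 88.8 CPM in controls and 76.2, 148 and 98.8 CPM after IAA, with ratios of 1.33, 1.30 and 1.11 within the pairs (paired log2 fold change of 0.32 with SE 0.09, edgeR adjusted p = 0.0377; unpaired adjusted p = 0.770).

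Fewer of the 6 higher members were called once a pair was left out, while their log2 fold changes stayed above 0. Calls over all genes were not counted in these fits, so the loss cannot be set against a background. Without pair 1 the paired fit called 1 member higher (Zbtb49), without pair 2 it called 2 (Zbtb18 and Zbtb39), and without pair 3 it called 3 (Zbtb14, Zbtb39 and Zbtb44). Zbtb10 was not called once any pair was left out. The log2 fold change over these fits was 0.48 to 0.62 for Zbtb49, 0.48 to 0.59 for Zbtb18, 0.39 to 0.51 for Zbtb39, 0.30 to 0.48 for Zbtb14, 0.28 to 0.42 for Zbtb44 and 0.27 to 0.38 for Zbtb10.

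**Figure D3:**
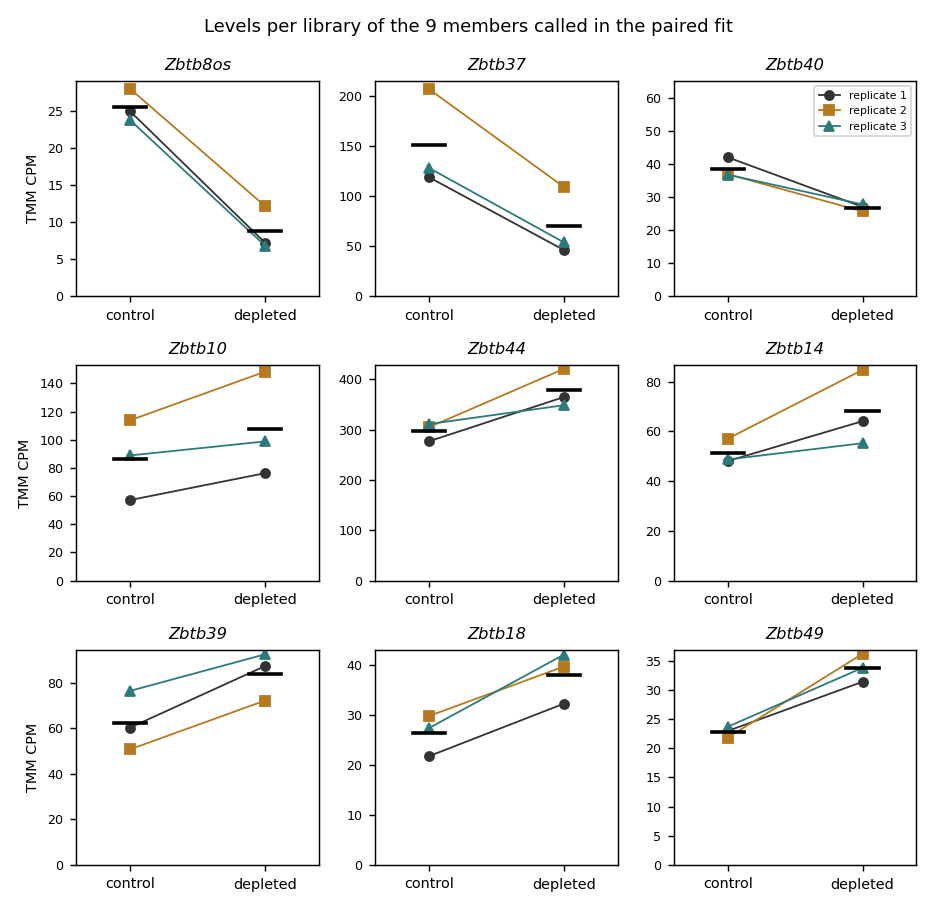
TMM-normalised CPM per library of the 9 members called in the paired fit, with lines joining libraries of the same replicate number and black bars at the group means. Zbtb8os, Zbtb37 and Zbtb40 fell in all 3 pairs and the other 6 rose in all 3. In Zbtb10 the replicates lie further apart than the groups.

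More members were higher than lower in all 3 pairs, most of them by small steps. The depleted library was the higher one in all 3 pairs for 21 members (51.2%), against 24.2% of all genes, and the lower one in all 3 for 8 members (19.5%), against 24.1% of all genes. Groups did not overlap in the higher direction for 5 members (12.2%), namely Zbtb49, Zbtb18, Zbtb44, Zbtb7b and Zbtb21, against 6.94% of all genes. In the unpaired fit 26 of the 41 had a log2 fold change above 0 (63.4%, against 52.3% of all genes), and the median was 0.15 over the members and 0.024 over all genes. Over the pairs the median ratio of the members was 0.027, 0.16 and 0.15 on the log2 scale, a mean of 0.11 ± 0.075 (SD, n = 3). Over all genes, with a small value added to each CPM, the median ratio was -0.011, 0.045 and -0.012. The unpaired median of the members was 0.027 without control replicate 2, in a fit that kept depleted replicate 2. The median over all genes was 0.0046 in that fit. The members' median was 0.081 without depleted replicate 3, and between 0.12 and 0.20 without any other single library.

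Of the 32 members not called in the paired fit, Zbtb7b and Zbtb21 were the ones without overlap between the groups. Zbtb7b, also called ThPOK and known as the factor that commits thymocytes to the CD4+ lineage, was at 31.9, 37.4 and 39.4 CPM in controls and 47.0, 41.9 and 51.4 CPM after IAA (paired log2 fold change of 0.37 with SE 0.12, edgeR adjusted p = 0.0693). Zbtb21 was at 86.8, 83.2 and 87.7 CPM and at 93.7, 101 and 99.9 CPM (paired log2 fold change 0.19, adjusted p = 0.173). Zbtb25 had the lowest paired value among the uncalled members, at 25.5, 30.2 and 17.8 CPM in controls and 14.5, 22.5 and 15.4 CPM after IAA (log2 fold change -0.48, adjusted p = 0.0786). It was lower in all 3 pairs, but the groups overlapped.

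Zbtb25 shares a head-to-head start with Zbtb1, needed for lymphocyte development, and their intervals overlap by 164 bases. Zbtb1 was at 81.8, 79.9 and 88.8 CPM in controls and 81.2, 73.2 and 70.5 CPM after IAA (paired log2 fold change -0.15, edgeR adjusted p = 0.336). Both were lower in all 3 pairs and neither was called. The neighbours Zbtb6 and Zbtb26, which lie 1248 bases apart on the same strand, leaned in opposite directions. Zbtb26 was at 127, 158 and 131 CPM and at 111, 128 and 113 CPM (paired log2 fold change -0.24, adjusted p = 0.0703), and Zbtb6 at 70.1, 105 and 70.2 CPM and at 82.4, 131 and 76.0 CPM (0.23, adjusted p = 0.123).

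The members listed as binding methylated DNA, Zbtb4, Zbtb33 and Zbtb38, were not called. Zbtb2, Zbtb7a and Zbtb24, from a separate list for stem cells and DNA methylation, were not called either. Zbtb33 (Kaiso) was at 62.0, 66.6 and 49.8 CPM in controls and 74.0, 76.7 and 60.3 CPM after IAA, higher in all 3 pairs (paired log2 fold change of 0.24 with SE 0.10, edgeR adjusted p = 0.114). Zbtb38 was at 96.3, 78.0 and 104 CPM and at 98.1, 73.9 and 104 CPM (-0.016, SE 0.09, adjusted p = 0.938), and Zbtb4 lay between 1.32 and 4.26 CPM in all libraries. Zbtb24, the gene of a human immunodeficiency with DNA hypomethylation and an activator of Cdca7, was at 36.9, 25.2 and 37.4 CPM and at 31.7, 22.6 and 27.6 CPM (-0.27, adjusted p = 0.218). It was lower in all 3 pairs with overlapping groups. Zbtb2 was at 66.2, 63.8 and 56.7 CPM and at 58.3, 62.4 and 45.0 CPM, also lower in all 3 pairs (-0.18, adjusted p = 0.294), and Zbtb7a (LRF), a repressor of fetal globin genes, was at 115, 63.7 and 87.3 CPM and at 111, 76.0 and 94.6 CPM (0.10, adjusted p = 0.542).

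The list for MYC partners and growth held Zbtb5, Zbtb7c, Zbtb11 and Zbtb17. That for telomeres and genome stability held Zbtb1, Zbtb10, Zbtb40 and Zbtb48. Of these members, Zbtb40 fell and Zbtb10 rose in the paired fit, as given above, and the others were not called. Zbtb14 and Zbtb49, described above with a tie to Myc or the cell cycle, were on neither list and were called higher in that fit. Zbtb17 (Miz1), the DNA-binding partner through which MYC represses genes, was at 26.2, 16.9 and 29.6 CPM in controls and 29.8, 22.6 and 32.8 CPM after IAA (paired log2 fold change 0.25, edgeR adjusted p = 0.282). Zbtb11, linked to the expression of mitochondrial proteins, was among the 4 members with the most counts and was at 157, 182 and 153 CPM and at 161, 218 and 164 CPM (0.14, adjusted p = 0.298). The other 2 of these 4 beside Zbtb44 were Zbtb43 at 184, 143 and 193 CPM and at 185, 157 and 187 CPM (0.033, adjusted p = 0.838) and Zbtb34 at 129, 138 and 154 CPM and at 154, 150 and 160 CPM (0.14, adjusted p = 0.272). Of the telomere-binding genes, Zbtb48 (TZAP) had a paired log2 fold change of 0.18 (adjusted p = 0.503).

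Of the members known as lineage factors of other cells, Zbtb18 and Zbtb7b are given above, and those that follow were not called. Zbtb16 (PLZF), of innate-like T cells and spermatogonia, had 5 to 56 counts per library and 0.285 to 2.60 CPM. Zbtb46, a marker of classical dendritic cells, lay between 4.55 and 8.53 CPM, and Zbtb32 between 23.9 and 31.6 CPM. Zbtb20, of hippocampal neurons and liver and the longest member at 759 kb, was at 24.7, 44.2 and 15.5 CPM in controls and 20.9, 32.8 and 17.7 CPM after IAA (paired log2 fold change of -0.17 with SE 0.16, edgeR adjusted p = 0.525). Without control replicate 2 its unpaired value turned from -0.24 to 0.24.

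The highest fold changes of the family belonged to members that no fit called. Zbtb22 was at 35.0, 2.50 and 32.0 CPM in controls and 42.9, 24.2 and 43.3 CPM after IAA, with 44 counts in control replicate 2 against 919 and 591 in the other controls. On the log2 scale the paired difference was 1.09 (SE 0.83, adjusted p = 0.543 in edgeR), and the unpaired value went from 0.66 to 0.13 without control replicate 2. Zbtb42 had 14 to 45 counts per library and went from 1.56, 0.797 and 0.758 CPM to 2.01, 1.55 and 2.71 CPM (paired log2 fold change 1.03, SE 0.62, adjusted p = 0.311). The uncalled members not described one by one (Zbtb3, Zbtb5, Zbtb7c, Zbtb9, Zbtb12, Zbtb41 and Zbtb45) had paired log2 fold changes between -0.038 and 0.29, with adjusted p of 0.0915 or more.

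Replicate 2 stood apart, in the family and over all genes. Control replicate 2 and depleted replicate 2 were both the lowest of their groups for 16 members, among them Zbtb7a, Zbtb12, Zbtb17, Zbtb22 and Zbtb48, and both the highest for 11, among them Zbtb10, Zbtb14, Zbtb20 and Zbtb37. The share of all genes with either pattern was not counted. Over all genes, deviations of the replicate 2 libraries correlated at 0.556 between the groups, against 0.417 and 0.446 for replicates 1 and 3. With other replicate numbers of the other group, those of replicate 2 correlated at -0.360 to -0.285. Between replicates 1 and 3 the values were -0.0727 and -0.0029. Deviations within a group sum to 0, so a positive value for the same number tends to bring negative ones with the others. What set these libraries apart was not tested.

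Over all genes the median change fell with genomic length, while that of the members did not follow this order. The members' median length was 18.3 kb, against 19.0 kb for 15364 tested genes with a length. The 12 members under 10 kb had a median paired log2 fold change of 0.27, against 0.14 for all genes of that class, and 3 of them were called higher (Zbtb14, Zbtb18 and Zbtb39), where 5.88% of all genes of that class were called higher and 2.41% lower. The 17 members of 10 to 30 kb had a median of -0.029, against 0.036, with Zbtb8os called lower, where 9.27% of all genes were called lower and 7.30% higher. The 8 members of 30 to 100 kb had a median of 0.21, against -0.070, and held Zbtb37 and Zbtb40 among the lower and Zbtb10, Zbtb44 and Zbtb49 among the higher calls. The 4 members of 100 kb or more (Zbtb7c, Zbtb16, Zbtb20 and Zbtb46) had a median of -0.18, against -0.13, and none was called, where 12.6% of all genes were called lower and 1.32% higher. In the class of 30 to 100 kb the paired fit called 13.9% of all genes lower and 4.48% higher. These medians of few genes are descriptions and were not tested.

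**Figure D4:**
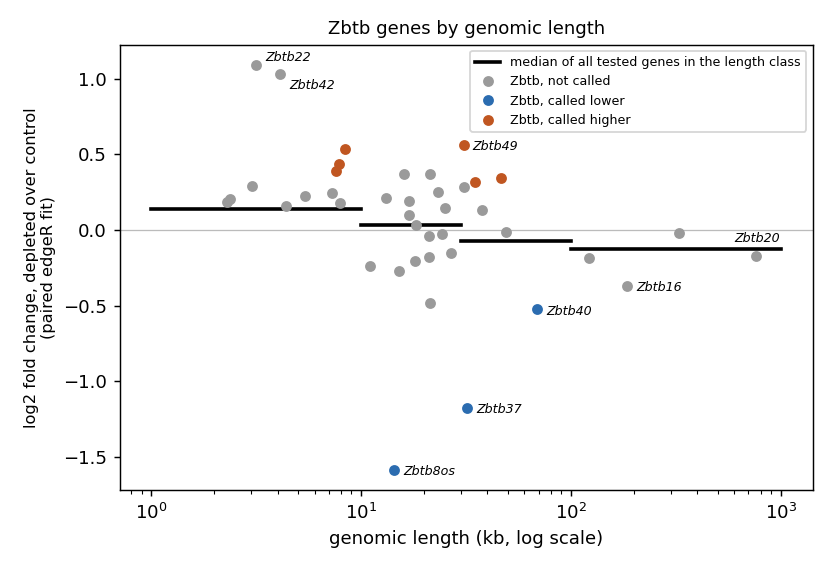
Paired log2 fold change of each of the 41 Zbtb genes against its genomic length on a log axis, with black lines at the median of all tested genes in each of 4 length classes. The class medians go from 0.14 down to -0.13, while the 8 members of 30 to 100 kb have a median of 0.21 and split into calls in both directions.

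Of the BTB zinc finger genes that carry other symbols, some were called higher too. Of 8 listed, 7 were tested, with Hic1 below the filter. The unpaired edgeR fit called 0 of them (2 at an unadjusted p under 0.05), DESeq2 called 0, and the paired fit called 3 higher and 0 lower. Over all genes 10.9% had an unadjusted p under 0.05 in the unpaired fit and 4.96% were called higher in the paired one. Hic2 went from 196 ± 24.5 to 257 ± 17.5 CPM (mean ± SD, n = 3; paired log2 fold change 0.39, edgeR adjusted p = 0.00727), Patz1 from 200 ± 17.4 to 249 ± 17.4 CPM (0.31, adjusted p = 0.0131) and Zfp131 from 138 ± 27.8 to 176 ± 60.7 CPM (0.32, adjusted p = 0.0329). Bcl6, Bcl6b, Gzf1 and Mynn were not called. The median of the 7 was 0.16 in both fits.

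Of 13 corepressor and CUL3 ligase genes, the paired fit called Sin3b, a scaffold of histone deacetylase complexes, which fell from 87.6 ± 4.44 to 71.1 ± 2.70 CPM (mean ± SD, n = 3; log2 fold change -0.30, edgeR adjusted p = 0.0445). In that fit 7.90% of all genes were called lower, so 1 of 13 is near the background. Ncor1, Bcor, Bcorl1, Sin3a, Hdac1, Hdac2, Hdac3, Tbl1x, Tbl1xr1, Gps2, Cul3 and Rbx1 were called in neither fit. The unpaired edgeR fit and DESeq2 called 0 of the 13. In unpaired edgeR 1 had an unadjusted p under 0.05. It was Gps2, which leaned higher (unpaired log2 fold change 0.58), and not Sin3b. Of 8 genes for partners and targets of single members, Myc rose in the paired fit, from 64.8 ± 10.5 to 91.4 ± 18.9 CPM (0.49, edgeR adjusted p = 0.00782), while Max, Huwe1, Ctnnd1, Cdca7, Hells, Nacc1 and Nacc2 were not called. The paired fit called 4.96% of all genes higher. The unpaired fit and DESeq2 called 0 of these 8, and 1 (Myc) had an unadjusted p under 0.05 in unpaired edgeR.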

How the data were processed

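The deposited table holds estimated counts of reads per gene, as whole numbers, for 6 libraries. The submitters' processing notes name build mm10 and the tools StringTie 2.2.1, HISAT2 2.2.1 and DESeq2 1.42.0 without saying what each did. Not given in the sources used here were the strandedness, the length of the 4sU pulse and whether RNA was spiked in. Where genes overlap, such estimation can share out their reads. Columns were matched to samples by replicate and time in the titles. The design text calls the replicates independent without saying what was repeated, so the spread behind the p-values may be partly technical.

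Counts were tested in R 4.3.3 with edgeR 4.0.16 (filterByExpr, TMM, robust quasi-likelihood test over all 17573 genes kept, Benjamini-Hochberg over all of them), after a check on simulated data. TMM shows changes relative to other genes, not a change of all labelled RNA. DESeq2 1.42.0, other scalings, other filters and leaving out libraries were the alternatives. Standard errors were derived from each F statistic.

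Deviations from the group means in log2(CPM + 1) correlated at 0.417, 0.556 and 0.446 between control and depleted libraries with the same replicate number in the labels. Other combinations gave -0.0029 or less. These values are over all genes, and the replicate numbers were used as pairs because of them. Over the 41 members the same numbers gave 0.753, 0.755 and 0.501. There, control 1 with depleted 3 gave 0.434 and control 3 with depleted 1 gave 0.395. Within the family, replicate 3 was thus little set apart from replicate 1.

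The members and lists were chosen with earlier results of these data known. Values per library were given for members called in either fit, the 4 with the highest mean CPM and members of the role lists where described. Zbtb6, Zbtb8a, Zbtb8b, Zbtb21, Zbtb22, Zbtb26 and Zbtb42 were described after their values were seen. 1 gene of the corepressor list is not reported here. Companion genes were given with values where called, and neighbours where their intervals adjoin or overlap those of a described member. Intervals, lengths and promoters come from RefSeq tables of GRCm38.p6, where all 41 symbols matched. Levels were not compared between genes, since no transcript length was used here.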

Additional observations from a re-analysis of the deposited data

How the results depend on the processing

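The number of members called depended on the replicate block. The unpaired fit called 1 member lower and 0 higher, the paired fit 3 and 6, and DESeq2 without the block 2 and 1. Over all genes these were 137 and 2, 1388 and 871, and 579 and 62. With single libraries left out, the unpaired fit called 0 members lower in each case, and between 0 and 1 of all genes lower and between 0 and 1 higher. Without single pairs the paired fit called between 1 and 3 members higher and 2 lower in each case. Calls over all genes were not counted for those fits. With the replicate block, the companion lists went from 0 calls each to 3 (other BTB zinc finger genes), 1 (corepressors and Cul3) and 1 (partners). Other scalings, no filter and a stricter filter called the same single member as the unpaired fit. The median over the members (0.15) stayed between 0.13 and 0.16 under these, under DESeq2 and with the replicate block, and was 0.027 without control replicate 2.

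Among members that neither fit called, 14 changed sign when single libraries were left out. The lowest and highest values over the 6 such fits were -0.0081 and 0.23 for Zbtb11, -0.066 and 0.49 for Zbtb12, -0.55 and 0.24 for Zbtb20, -0.30 and 0.43 for Zbtb3, -0.12 and 0.13 for Zbtb38, -0.59 and 0.20 for Zbtb4, -0.097 and 0.11 for Zbtb43, -0.44 and 0.028 for Zbtb46, -0.064 and 0.52 for Zbtb48, -0.19 and 0.14 for Zbtb5, -0.043 and 0.46 for Zbtb6, -0.11 and 0.32 for Zbtb7a, -0.51 and 0.32 for Zbtb7c, and -0.21 and 0.12 for Zbtb8a. Zbtb38 was also 0.0041 in DESeq2 and 0.0043 with its size factors, and Zbtb7c was -0.019 with the replicate block and -0.0077 with no filter. The cause of these changes was not tested. Depth was lowest for the 6 members with under 100 counts in some library, Zbtb3, Zbtb4, Zbtb7c, Zbtb16, Zbtb22 and Zbtb42, of which Zbtb22 had 44 counts in control replicate 2 and 531 to 960 in the other libraries.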
